A study of Mus musculus with 10 samples.

Results

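The 10 genes described here encode neuronal cell adhesion molecules of the immunoglobulin superfamily. They were taken by name from the 24453 genes of the count table, and all 10 were found there. *Lsamp*, *Ntm*, *Opcml* and *Negr1* belong to the IgLON family, and *L1cam*, *Chl1*, *Nrcam* and *Nfasc* form the L1 family. *Ncam1* and *Ncam2* are neural cell adhesion molecules that belong to neither family and are given beside them. A further IgLON gene, *Iglon5*, is not among the 10. The question was how much RNA of these genes was counted in each type of layer 5 intratelencephalic projection neuron (IT-PN), and whether the types differed.

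Each of 5 animals gave 1 *Fezf2+ve* and 1 *Fezf2−ve* IT-PN library, which makes 10 RNA-seq libraries in pairs. The animals were male mice hemizygous for the (Zfp312-EGFP)CO61GsatMmnc transgene on a Swiss Webster background, in which GFP is driven by *Fezf2* regulatory elements. A fluorescent retrograde tracer, cholera toxin B, was injected into the left primary motor cortex at postnatal day 23 to 25, and cells were sorted from layer 5 of the right side at postnatal day 28 to 32. *Fezf2+ve* IT-PNs carried GFP and tracer and *Fezf2−ve* IT-PNs carried tracer without GFP, so the type was assigned by reporter and sorting gates. Both types carry the same transgene and tracer. The study's own text also describes an RT-PCR check of endogenous *Fezf2* in both sorted fractions. The sample records give mean yields of 11280 and 2688 sorted cells. The study's own text gives a different mean for the *Fezf2−ve* cells. Between 89138 and 217738 reads were counted on genes in a library, so that 3 reads, taken here as the floor of detection, corresponded to 13.8 to 33.7 CPM (reads on a gene scaled to a common library size). Reads amplified by PCR without molecular identifiers are not independent molecules, and this floor covers counting error only.

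IgLONs are small proteins held on the outer face of the membrane by a glycosylphosphatidylinositol anchor, and they pair with themselves and with each other between neighbouring neurons. L1-family proteins cross the membrane, and a short motif in their cytoplasmic tail binds ankyrin, which ties them to the spectrin skeleton at the axon initial segment and along axons. NCAM1 and NCAM2 bind between cells in a similar way, and NCAM1 is the main carrier of polysialic acid in the brain.

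The ankyrin-binding motif is shown because it is the sequence feature that separates the L1 family from the other genes described. A search of the longest coding transcript of 21875 genes found its 5-residue string in 11. These included all 4 L1-family genes and none of the other 6 described here. A match to so short a string does not by itself show that a protein binds ankyrin. The search allowed both the form in *Chl1* and the form in *L1cam*, *Nrcam* and *Nfasc*, which differ at a single residue. That all 4 were found thus follows from the forms allowed. The lines below give the coding sequence, 5′ to 3′, of GENCODE transcripts on mm10 (GRCm38), with the 5 codons of the motif in capitals. The stretch lies within a single coding exon in each gene, at chrX:73855107-73855151 (minus strand) for *L1cam*, chr6:103729234-103729278 (plus strand) for *Chl1*, chr12:44598471-44598515 (plus strand) for *Nrcam* and chr1:132570492-132570536 (minus strand) for *Nfasc*.
L1cam: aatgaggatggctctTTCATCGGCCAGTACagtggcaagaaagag
Chl1: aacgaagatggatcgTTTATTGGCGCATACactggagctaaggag
Nrcam: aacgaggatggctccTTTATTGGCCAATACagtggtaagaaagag
Nfasc: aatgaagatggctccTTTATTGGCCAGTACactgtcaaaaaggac

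The genes differ widely in size. *Lsamp* spans 2197 kb on chromosome 16 and *Negr1* 754.7 kb on chromosome 3. *Opcml* (1135 kb) and *Ntm* (968.4 kb) lie side by side on chromosome 9. Each of these IgLON proteins is nevertheless encoded by 1032 to 1065 coding bases. The L1-family genes span 42.3 kb (*L1cam*) to 273.1 kb (*Nrcam*) and have coding lengths of 3627 to 4041 bases, while *Ncam1* and *Ncam2* span 296.8 and 426.1 kb. The 9 of these genes that entered the test lay between the 85.4th and the 99.9th percentile of gene span among the 7185 tested genes with a position, whose median span was 46.0 kb. Span is given because reads were counted on RefFlat genes. Across those 7185 genes, which are not independent replicates, span and mean CPM had a Spearman correlation of 0.27.

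Markers of the sorted cells were low and uneven. The summed level of 6 neuronal markers was 63.9 to 678 CPM in *Fezf2+ve* and 59.7 to 113 CPM in *Fezf2−ve* libraries. The medians were 356 and 80.4 CPM, and the *Fezf2+ve* library was higher in all 5 animals. In animal 5 both libraries held the same number of reads of these markers, and only library size set them apart (63.9 and 59.7 CPM). *Map2* was the most abundant, and *Tubb3* had 1 read over all libraries. The 5 markers of excitatory projection neurons summed to between 0 and 3266 CPM, and 529 of the 588 reads of the most abundant, *Camk2a*, came from *Fezf2−ve* library 3. *Slc17a7*, the vesicular glutamate transporter of these neurons, had 11 reads in all.

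Markers of other cell types were also counted. The 10 microglial markers, with *Ctss* the most abundant and none without a read, summed to 186, 139, 59.3, 52.8 and 108 CPM in *Fezf2+ve* libraries 1 to 5 and to 6021, 3713, 5127, 1386 and 3936 CPM in *Fezf2−ve* libraries 1 to 5. Their sum was higher in the *Fezf2−ve* library of all 5 animals. An unadjusted edgeR p under 0.05 was found for 8 of the 10, against 3.89% of all genes tested, although none passed after adjustment. Astrocyte markers, led by *Slc1a2* and with *Gfap* at 0, summed to 41.3 to 7683 CPM, and oligodendrocyte precursor markers, led by *Vcan*, to 66.0 to 4627 CPM. The 4 endothelial markers, led by *Flt1*, summed to at most 65.0 CPM. The sorting gates took live single cells that carried tracer. The part of these cell types in the values of the adhesion genes was not tested. In sorted bulk samples, fewer cells of a type and less RNA per cell cannot be told apart.

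Together the 10 adhesion genes took 5.51, 0.568, 0.164, 1.39 and 2.54% of the gene reads of *Fezf2+ve* libraries 1 to 5. In *Fezf2−ve* libraries 1 to 5 they took 0.825, 0.166, 0.211, 0.76 and 0.107%. The highest shares lay in *Fezf2+ve* libraries 1 and 5 and the lowest in a *Fezf2−ve* library, but the types overlapped.

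**Figure D1:**
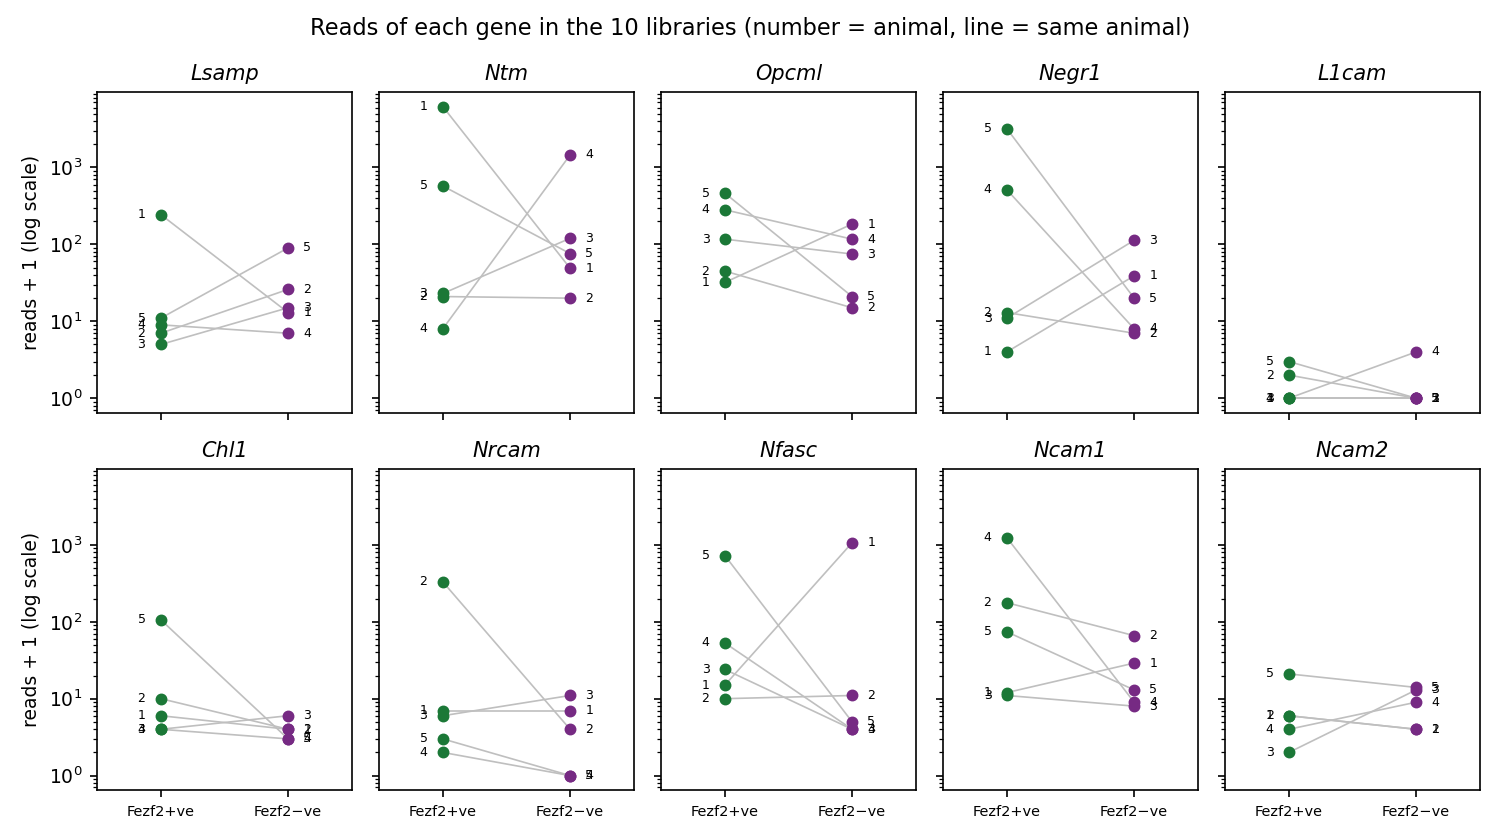
Reads (plus 1, log scale) of each of the 10 genes in *Fezf2+ve* (green) and *Fezf2−ve* (purple) libraries, with the animal's number beside each point and a line joining the libraries of 1 animal. In most panels 1 or 2 libraries stand above the rest, from 105 reads for *Chl1* to 6192 for *Ntm*, and the points of the types overlap in every panel.

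*Ntm* (neurotrimin) had the most reads of the IgLON genes, 8529, and ranked 16th of all genes in the table. *Fezf2+ve* libraries 1 to 5 held 6192, 20, 22, 7 and 574 reads of it, and *Fezf2−ve* libraries 1 to 5 held 48, 19, 119, 1453 and 75. Its reads thus came mainly from 1 library of each type, and of the other 8 libraries *Fezf2+ve* library 5 was the highest in CPM (2822), while *Fezf2+ve* libraries 2, 3 and 4 (46.2 to 186 CPM) lay below the 4 *Fezf2−ve* libraries (213 to 705 CPM). *Fezf2+ve* library 1 alone gave 81.8% of the summed CPM of *Ntm*, which made up 5.24% of that library's gene reads. ERCC spike-in reads were 46.7% of all reads counted in the same library, the highest share of the 10, and their part in this value was not tested.

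*Opcml*, an opioid-binding IgLON by name, was the most evenly counted of the genes with 100 reads or more. It had 31, 44, 116, 281 and 463 reads in *Fezf2+ve* libraries 1 to 5 and 183, 14, 74, 116 and 20 in *Fezf2−ve* libraries 1 to 5. All 10 libraries were above the floor, and the *Fezf2+ve* library was higher in 4 of 5 animals, with animal 1 the exception. On the TMM-normalized log2(CPM + 1) scale its mean level was 9.80 ± 1.75 (SD, n = 5) for the *Fezf2+ve* type and 8.38 ± 1.49 (SD, n = 5) for the other.

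*Negr1*, the neuronal growth regulator of the family, was counted with 3, 12, 10, 512 and 3191 reads in *Fezf2+ve* libraries 1 to 5. The corresponding *Fezf2−ve* libraries held 38, 6, 112, 7 and 19 reads. *Fezf2+ve* libraries 4 and 5 were high and held 93.6% of its summed CPM, while the other 3 *Fezf2+ve* libraries lay within or below the range of the *Fezf2−ve* libraries. *Lsamp*, the limbic system-associated member, showed 243, 6, 4, 8 and 10 reads in *Fezf2+ve* libraries and 12, 25, 14, 6 and 89 in *Fezf2−ve* libraries. Apart from *Fezf2+ve* library 1 and *Fezf2−ve* library 5 all its values were at 25 reads or below. Its level was 6.73 ± 2.45 (SD, n = 5) against 6.87 ± 1.44 (SD, n = 5) on the same log2 scale, and without *Fezf2+ve* library 1 the former was 5.68.

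In the L1 family, *Nfasc* had the most reads (1908). Neurofascin is found at the axon initial segment of neurons, and another isoform serves the paranodal junctions of myelinating glia. Its reads were 14, 9, 23, 52 and 725 in *Fezf2+ve* libraries 1 to 5 and 1065, 10, 3, 3 and 4 in *Fezf2−ve* libraries 1 to 5. *Fezf2−ve* library 1 and *Fezf2+ve* library 5 held 91.7% of its summed CPM, so the highest value of each type came from a different animal. Without these libraries the highest was 52 reads.

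*Nrcam*, which is found with *Nfasc* at nodes and initial segments, had 6, 329, 5, 1 and 2 reads in *Fezf2+ve* and 6, 3, 10, 0 and 0 reads in *Fezf2−ve* libraries. *Fezf2+ve* library 2 held 92.8% of its summed CPM, and 5 of the other 9 libraries had 3 reads or fewer. Among the marker lists reported here, which leave out some, that library was the highest of the 10 in summed astrocyte (7683 CPM), neuronal (678 CPM) and endothelial markers (65.0 CPM), whose part in the *Nrcam* value was not tested. *Chl1*, the close homologue of L1, had 5, 9, 3, 3 and 105 reads in *Fezf2+ve* libraries and 3, 3, 5, 2 and 2 in *Fezf2−ve* libraries. Only *Fezf2+ve* library 5 was above 9 reads, and the ranges of the types overlapped. *L1cam* itself was at or below the floor in all 10 libraries, with 6 reads in all and 7 libraries at 0. No fold change is given for it, and its absence from a library is not shown at this depth.

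*Ncam1* was counted with 11, 176, 10, 1237 and 73 reads in *Fezf2+ve* libraries 1 to 5, and with 28, 65, 7, 8 and 12 in *Fezf2−ve* libraries 1 to 5. *Fezf2+ve* library 4 stood highest, with 71.8% of the summed CPM, and in CPM libraries 1, 3 and 5 of the same type were within the *Fezf2−ve* range. *Ncam2* was low throughout, at 1 to 20 reads in *Fezf2+ve* and 3 to 13 in *Fezf2−ve* libraries, and was spread most evenly of all 9 tested genes, with 22.6% of its summed CPM in its highest library.

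An annotated antisense gene, *Gm11149*, lies inside *Ncam1* on the opposite strand (chr9:49518288-49572591, plus strand, mm10), over 18.3% of the *Ncam1* span and over 14 of the 18 exons of its longest coding transcript. It has its own row in the count table. Its reads were 9, 36, 2, 1213 and 65 in *Fezf2+ve* libraries 1 to 5 and 13, 3, 5, 3 and 0 in *Fezf2−ve* libraries 1 to 5, against the *Ncam1* reads given above. If every read on *Gm11149* was also counted on *Ncam1*, as the counting method allows, then 98.1% of the *Ncam1* reads of *Fezf2+ve* library 4 but 20.5% of those of *Fezf2+ve* library 2 fell in this stretch. Whether strand was used to count is not given in the sources used here, so reads of the gene and of its antisense partner cannot be told apart. Of the other overlapping genes, *Gm10538* inside *Nfasc* had 0 reads, and *Avpr2* within *L1cam* and *Arhgap4*, which overlaps part of it on the same strand, had 1 and 17, against 6 for *L1cam* itself.

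**Figure D2:**
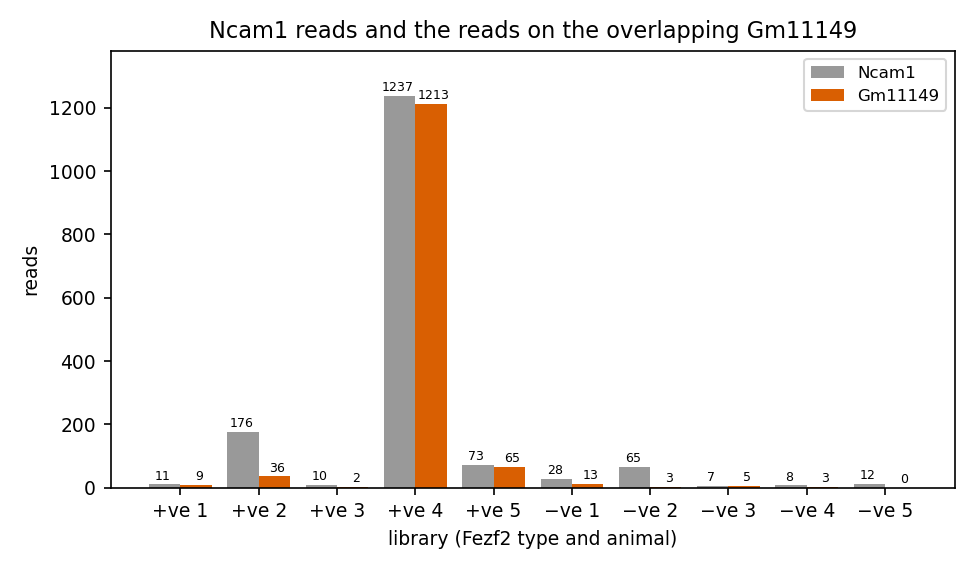
Reads of *Ncam1* in each library (grey) and of the antisense gene *Gm11149* inside it (orange), with the number of reads above each bar. *Fezf2+ve* library 4 has 1237 reads of *Ncam1* and 1213 of *Gm11149*, whereas *Fezf2−ve* library 2 has 65 and 3. Whether the same reads were counted on both genes is not known.

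The concentration of reads in 1 library was not particular to these genes. The highest library held a median of 65.9% of the summed CPM of the 9 tested adhesion genes and 47.4% over all 7409 tested genes. Among genes with 100 reads or more the medians were 68.9% for 8 adhesion genes and 75.4% for 1418 genes. The library in which an adhesion gene was highest was *Fezf2+ve* 5 for 4 of them (*Opcml*, *Negr1*, *Chl1* and *Ncam2*), *Fezf2+ve* 1 for *Ntm* and *Lsamp*, and *Fezf2+ve* 2, *Fezf2+ve* 4 and *Fezf2−ve* 1 for *Nrcam*, *Ncam1* and *Nfasc*. Of all tested genes, 9.47% were highest in *Fezf2+ve* library 5.

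**Figure D3:**
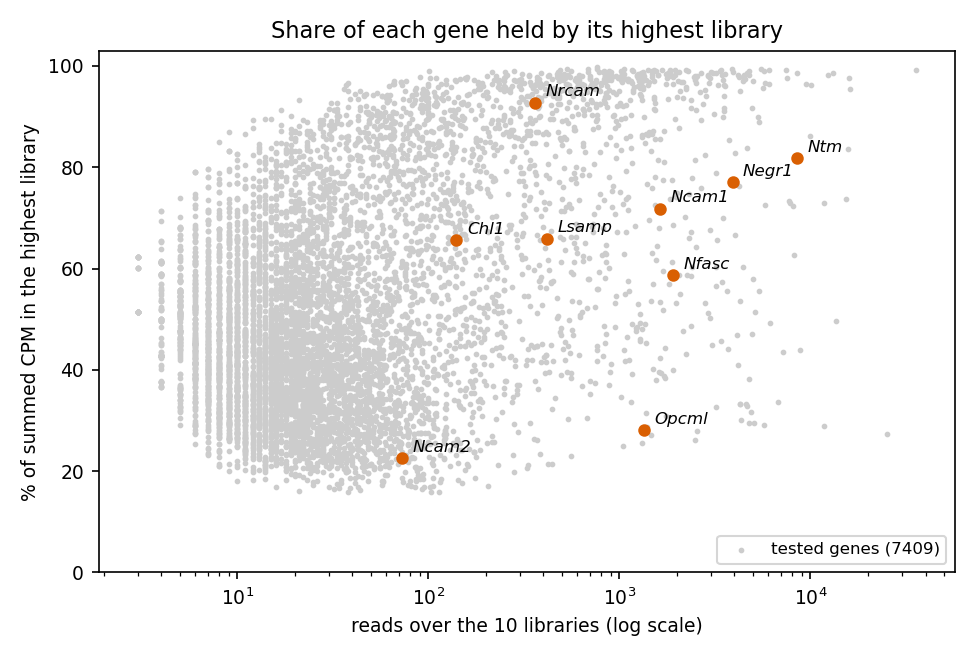
Share of each gene's summed CPM that came from its highest library (vertical axis, percent) against its reads over all 10 libraries (log scale), for the tested genes (grey) and the 9 tested adhesion genes (orange). The adhesion genes run from 22.6% (*Ncam2*) to 92.8% (*Nrcam*) within the spread of the other genes.

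The median CPM over the 10 libraries was 494 for *Opcml*, 315 for *Ntm*, 130 for *Ncam1*, 115 for *Nfasc*, 99.4 for *Negr1*, 63.6 for *Lsamp*, 40.1 for *Ncam2*, 34.7 for *Nrcam*, 27.5 for *Chl1* and 0 for *L1cam*. Levels of different genes were compared after this median was divided by the gene span in kb. The order was *Nfasc* (0.651 CPM per kb), *Ncam1* (0.438), *Opcml* (0.435), *Ntm* (0.325), *Negr1* (0.132), *Nrcam* (0.127), *Chl1* (0.115), *Ncam2* (0.0941), *Lsamp* (0.0289) and *L1cam* (0). Each gene exceeded the next in only 4 to 7 of the 10 libraries, and no neighbours in this order were separated beyond the spread between libraries. Per kb of transcript the order began with *Opcml* (208 CPM per kb), *Ntm* (104) and *Ncam1* (42.1), and *Lsamp* (18.7) exceeded *Nrcam* (7.76) in 9 of 10 libraries. Which length applies, if any, is unsettled, since reads were counted on RefFlat genes but the libraries were primed from the poly(A) tail. The study's own text describes its libraries as biased to the 3′ end and holds that length can be left out of normalization.

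The types were compared by the quasi-likelihood test of edgeR with the animal as a block, over the 7409 genes that reached 10 CPM in 2 or more libraries. *L1cam* did not reach this filter. None of the 9 tested adhesion genes passed a Benjamini-Hochberg adjusted p of 0.1, and none of the 7409 genes did (0% called, smallest adjusted p = 0.993). At an unadjusted p under 0.05 edgeR found 0 of the 9 and 288 of the 7409 (3.89%). DESeq2 with the same block called 0 of the 9 and 98 of the 7409 (1.32%). It gave no adjusted p for 5745 of the 7409 genes, *Ncam2* among them, and these could not be called. Of the 1664 genes with an adjusted p, the 98 were 5.89%. The CPM values of the types did not overlap for 0 of the 9 and for 77 of the 7409 genes (1.04%), and the direction was the same in all 5 animals for 0 of the 9 and for 304 (4.1%).

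The fitted differences were loosely determined. The log2 fold change of *Fezf2+ve* over *Fezf2−ve* was 2.53 for *Nfasc* (SE 2.11, 95% interval -1.88 to 6.94), and its *Fezf2+ve* library was higher in 3 of 5 animals. For *Nrcam* it was 2.30 (SE 1.54, -0.92 to 5.53), for *Ncam1* 1.89 (SE 1.42, -1.10 to 4.87), for *Chl1* 1.67 (SE 1.18, -0.78 to 4.12) and for *Opcml* 1.42 (SE 1.29, -1.29 to 4.14), each with the *Fezf2+ve* library higher in 4 of 5 animals. In 2 of these animals for *Nrcam* (4 and 5) and in 1 for *Chl1* (4) both libraries were at or below the floor of 3 reads, and in animal 1 *Nrcam* had 6 reads in each library. *Negr1* was at 1.19 (SE 2.46), *Ntm* at 0.16 (SE 2.31), *Ncam2* at -0.13 (SE 1.09) and *Lsamp* at -0.58 (SE 1.44). All 9 had an adjusted p of 0.998 by this edgeR test. The intervals include 0 and also differences of over 2 on the log2 scale for every gene, so neither a difference nor its absence was shown. The median log2 fold change was 1.42 over the 9 genes and -0.16 over all genes tested.

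The animal block mattered for these values. Without it the log2 fold changes of *Negr1*, *Nrcam*, *Ncam1* and *Chl1* were 4.75, 4.37, 4.23 and 3.07, and these 4 of the 9 genes had an unadjusted edgeR p under 0.05, against 18.2% of all genes tested. None passed the adjusted threshold (lowest adjusted p = 0.147), while 279 of 7409 genes did (3.77%). *Nfasc* and *Lsamp* changed sign, from 2.53 to -0.04 and from -0.58 to 1.32. Single animals also set the direction: without animal 1, whose *Fezf2+ve* library held most reads of *Ntm*, its log2 fold change was -1.29, and without animal 5 it was -1.15. *Negr1* was at -0.53 without animal 4 and at -0.57 without animal 5. When the reads on *Gm11149* were taken from *Ncam1*, an alternative added after the values had been seen, its log2 fold change was 0.73 (SE 1.19).

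**Figure D4:**
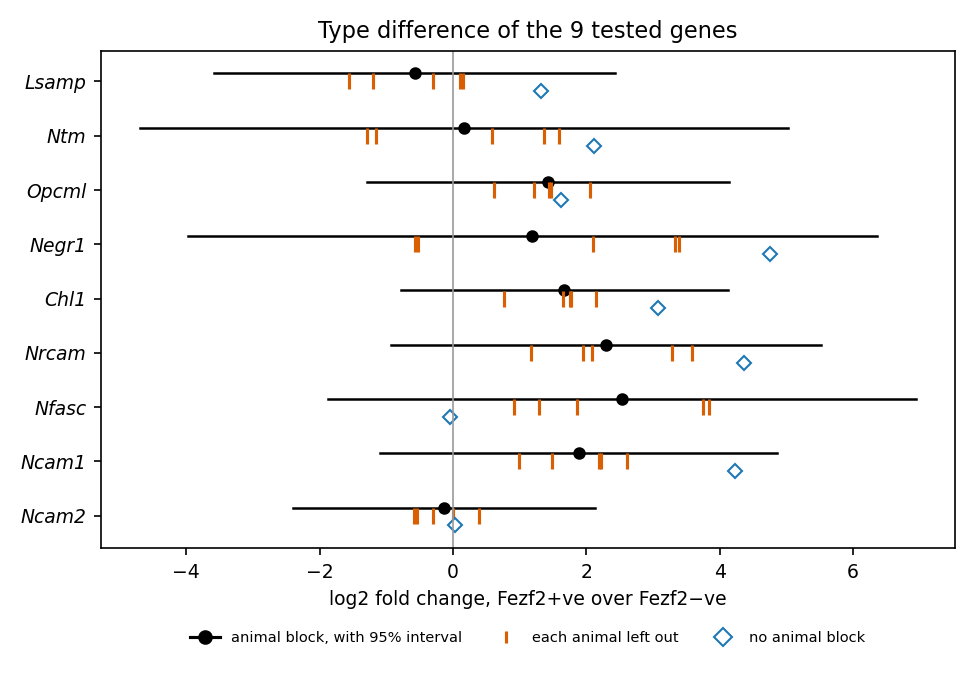
Log2 fold change of *Fezf2+ve* over *Fezf2−ve* for the 9 tested adhesion genes in the edgeR fit with the animal block (black, bars are 95% intervals), with each animal left out in turn (orange ticks) and without the block (open diamonds). All 9 intervals include 0, and the ticks of *Lsamp*, *Ntm*, *Negr1* and *Ncam2* fall on both sides of 0.

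Over the 36 pairs of the 9 tested genes the Pearson correlation of log2(CPM + 1) across the 10 libraries had a median of 0.16 and ran from -0.52 to 0.74, and over all pairs of tested genes the median was 0.0298. The closest pair was *Opcml* and *Negr1* (r = 0.744), both highest in *Fezf2+ve* library 5, and the neighbours *Opcml* and *Ntm* were at -0.003. These points share animals, depth and a few very high values, and are given as a description.

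Of the 24 listings of a most similar gene over the 10 libraries, 21 were highest in the same library as the adhesion gene. The exceptions were *Asxl3*, *Cdc42ep4* and *Uckl1*. The listed genes were chosen by their correlation with the adhesion gene over these same libraries. Where 1 library holds most of a gene's CPM, that choice favours genes with the same highest library. The count of 21 is therefore not a separate result and is given as a description. *Chl1* was nearest to *Gapvd1* (r = 0.960), the protocadherin gene *Pcdh7* (0.937) and *Ppp1r12a* (0.935), of which 72, 1823 and 5649 reads lay in *Fezf2+ve* library 5. *Nrcam* was nearest to *Degs1* (0.918), *Dnajc12* (0.906) and *Rapgef4* (0.905), with 617, 45 and 498 reads in *Fezf2+ve* library 2. *Nfasc* was nearest to *Mmgt1* (0.933), to *Gphn* (0.919), which encodes the inhibitory synapse scaffold gephyrin and had 1482 of its 2009 reads in *Fezf2−ve* library 1, and to *Cdc42ep4* (0.894). *Ntm* was nearest to *Spag9* (0.944), *Agpat5* (0.936) and *Fgf1* (0.920). *Opcml* and *Negr1* shared *Uso1* among their nearest genes (0.890 and 0.917), beside *Rfwd3* (0.898) and *Asxl3* (0.871) for *Opcml* and *Nos1ap* (0.925) and *4932702P03Rik* (0.924) for *Negr1*. For *Ncam1* they were *Setdb2* (0.912), the ribosomal RNA precursor *Rn45s* (0.907) and *Uckl1* (0.890). For *Lsamp* they were *Gpr162* (0.942), *Cyp2c53-ps* (0.920) and *Gm11837* (0.899), which had 6, 14 and 12 reads in all. Few reads also lay behind *4932702P03Rik* (6 in all), *Setdb2* (11), *Agpat5* (13), *Asxl3* (13), *Fgf1* (16) and *Mmgt1* (22).

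Genes whose products bind, anchor or process these molecules were counted as well. Of 51 such genes, all in the table, 37 were tested, and edgeR called 0 of them, with 3 at an unadjusted p under 0.05 (8.11%, against 3.89% of all genes tested). DESeq2 with the block called 2 of the 13 partner genes that had an adjusted p (15.4%, against 98 of 1664 or 5.89% over all genes tested) and gave none for the other 24, and edgeR without the block called 2 (5.41%, against 3.77%). Among the other immunoglobulin-superfamily genes 10 of 14 were tested. *Dscam*, the Down syndrome cell adhesion molecule, had the most reads (3476), of which 2738 were in *Fezf2+ve* library 5. *Mdga2*, a glycosylphosphatidylinositol-anchored regulator of synaptic adhesion, had 29, 11, 524, 15 and 21 reads in *Fezf2+ve* and 7, 2, 17, 1 and 17 in *Fezf2−ve* libraries. The *Fezf2+ve* library was the higher in all 5 animals. The log2 fold change of *Mdga2* was 2.97 (SE 1.22, unadjusted p = 0.0249, adjusted p = 0.998 in edgeR with the block). Its adjusted p was 0.1065 in edgeR without the block and 0.1141 in DESeq2. *Iglon5*, the fifth IgLON gene, had 0 reads in all libraries.

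Of the ankyrin and spectrin genes that anchor L1-family tails, 6 of 7 were tested. *Ank3*, the ankyrin of the axon initial segment, had 336 reads, 227 of them in *Fezf2+ve* library 3, a library in which *Nfasc* had 23 reads and *Nrcam* 5. *Sptan1*, the common alpha spectrin, had 2, 11, 7, 110 and 11 reads in *Fezf2+ve* and 8, 1, 0, 5 and 1 in *Fezf2−ve* libraries. The fitted difference was 3.21 on the log2 scale (SE 1.41, unadjusted p = 0.0338, adjusted p = 0.998 in edgeR with the block). Its adjusted p was 0.1569 in edgeR without the block and 0.1364 in DESeq2. The direction was the same in 4 of 5 animals, and most of the reads were in 1 library. The adaptors and kinases, of which 6 of 9 were tested, had few reads, the highest mean levels being those of *Dlg1* (52.6 CPM, 59 reads) and *Ezr* (31.2 CPM, 42 reads), and none had an unadjusted p under 0.05.

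Of the co-receptors and extracellular ligands 13 of 16 were tested. *Cntn1*, a contactin that pairs with L1-family proteins, had the highest mean level (1038 CPM), with 491, 440 and 132 reads in *Fezf2+ve* libraries 3, 4 and 5 and 422 in *Fezf2−ve* library 1. Its adjusted p was 0.998 in edgeR with the block, 0.566 without it and 0.0581 in DESeq2. The integrin gene *Itgb1* had 231 and 405 reads in *Fezf2+ve* libraries 2 and 4 and at most 10 elsewhere. It was called without the block (adjusted p = 0.0931 in edgeR) and not with it (adjusted p = 0.998). *Plxna4*, a semaphorin receptor subunit, had 3, 0, 2, 1 and 1 reads in *Fezf2+ve* and 321, 2, 126, 31 and 1 in *Fezf2−ve* libraries. Its *Fezf2+ve* libraries were at or below the floor of 3 reads per library, and its mean CPM was at least 25.0-fold lower there than in *Fezf2−ve* libraries, of which 2 were also at or below the floor. Without *Fezf2−ve* library 1, left out after the values had been seen, this bound was 10.2-fold. Its adjusted p was 0.998 in edgeR with the block (unadjusted p = 0.00888), 0.0931 without it and 0.0269 in DESeq2. Among sheddases and polysialyltransferases 2 of 5 were tested. All 48 reads of *Bace1* came from *Fezf2+ve* library 3, *Adam10* had 27 reads in all, and *St8sia2* and *St8sia4*, which add polysialic acid to NCAM1, had 2 and 5.

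**Figure D5:**
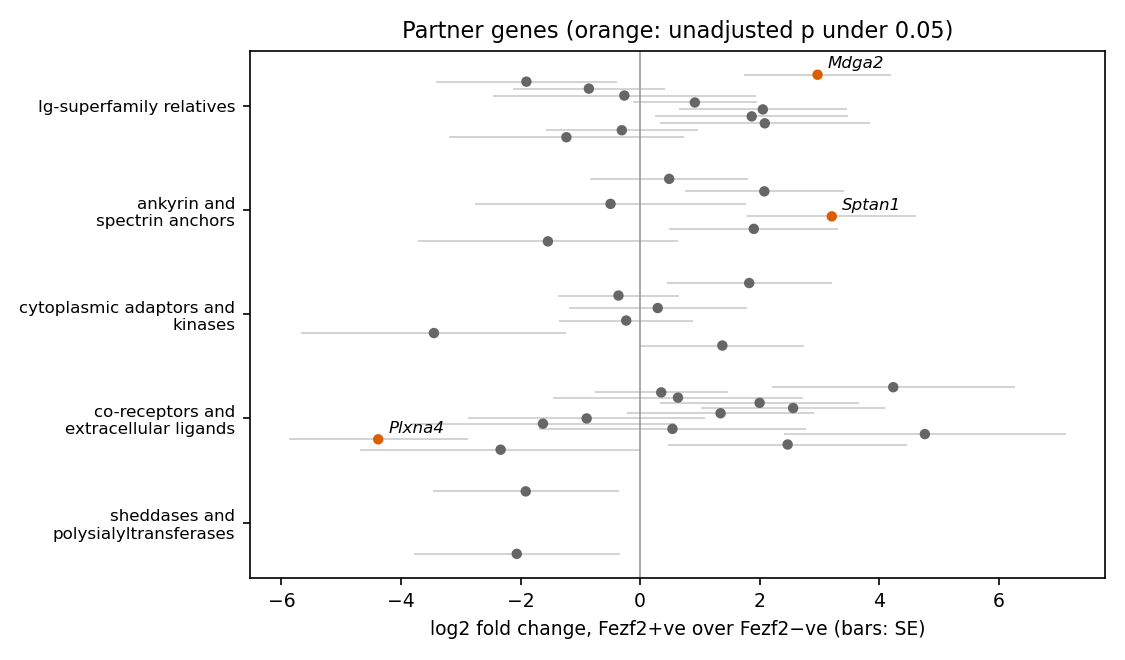
Log2 fold change of *Fezf2+ve* over *Fezf2−ve* (points, with bars of 1 SE) for the 37 tested partner genes in 5 groups, from edgeR with the animal block. *Mdga2*, *Sptan1* and *Plxna4* (orange) had an unadjusted p under 0.05, and none of the 37 passed the adjusted threshold.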

How the data were processed

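Trimmed reads were aligned by the authors to mm10 (TopHat2 2.1.1) and counted on RefFlat genes and on ERCC sequences (bedtools 2.26.0). The deposited tables hold read counts without normalization. A further deposited table holds the authors' own DESeq2 comparison and was not used. The libraries are low-input, amplified by PCR and in vitro transcription.

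Genes that reached 10 CPM in 2 or more libraries were tested after TMM scaling by glmQLFTest (edgeR 4.0.16, R 4.3.3), the design holding the animal and the type, with p-values adjusted over all genes tested. DESeq2 1.42.0 was an alternative. The legacy form of the edgeR test was run first and replaced by the newer form after its counts of calls had been seen. The animal numbers come from the sample titles, and the sample records state that both sorted fractions came from 1 animal. Deviations from the type means correlated at 0.029 on average within animals. A two-sided exact permutation test over the 5 animals, whose smallest possible p is 0.0625, gave p = 0.188 for library totals and p = 0.625 for ERCC shares.

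The members and lists were chosen with earlier results of these data known. Named genes are the members, the 2 most abundant genes of each partner group, partner genes with an unadjusted p under 0.05, the 3 most correlated genes of each member with 100 reads or more, annotated genes that overlap a member, and the most abundant gene of each marker list reported. *Slc17a7*, *Snap25*, *Tubb3*, *Gfap*, *Iglon5*, *St8sia2* and *St8sia4* were named after their values had been seen. Coding sequences and positions are from GENCODE M21. Fits were tested on simulated data, where at high dispersion edgeR called none of the changed genes and DESeq2 called most of them along with unchanged ones. In the real counts the coefficient of variation beyond counting error was 1.19 overall. The results of some marker lists are not reported here. Of 670 nested gene pairs with reads, the outer gene held at least the reads of the inner in all libraries for 79.9%, so whole-interval counting was not fully borne out.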

Additional observations from a re-analysis of the deposited data

Results flagged for a closer look

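Of 20 sets of 5 libraries, 1 for each gene and type, 3 had a library far from the other 4 on the TMM-normalized log2(CPM + 1) scale, by a ratio of gap to range above 0.71. Chance gives about 1 in 20 such sets where values vary freely, which does not hold for *L1cam*. *Lsamp* in *Fezf2+ve* library 1 was at 10.96, with the other 4 between 4.84 and 6.57. *Nrcam* in *Fezf2+ve* library 2 was at 11.07, with the others between 3.67 and 5.65. *L1cam* in *Fezf2−ve* library 4 was at 4.60, which is 3 reads, with the others at 0, so that any read would have met the ratio. The high values of *Ntm*, *Negr1*, *Chl1*, *Nfasc* and *Ncam1* did not meet this ratio on the log scale.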

How the results depend on the processing

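The count of calls depended on the animal block and on the tool: with no block, 279 genes and 2 partner genes were called, against 0 and 0 with it, and DESeq2 with the block called 98 and 2. The legacy quasi-likelihood method of edgeR, which was run first and made an alternative after its counts had been seen, called 638 and 2 without the block and 0 and 0 with it. The cause was not tested. For the members the count was 0 under every alternative run. It was also 0 for all 3 counts with no scaling beyond library size, with the size factors of DESeq2, without a filter, with the stricter filter, after downsampling, with an adjusted threshold of 0.05 where it was applied, and with each animal left out. These zeros of the edgeR test with the block say little about stability, since in simulated data of high dispersion it called none of the changed genes. Without the block the log2 fold changes of *Lsamp*, *Nfasc* and *Ncam2* turned to 1.32, -0.042 and 0.033, and to 1.32, -0.042 and 0.036 by the legacy method.

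With each animal left out in turn, *Lsamp* ran from -1.57 to 0.16, *Ntm* from -1.29 to 1.60, *Negr1* from -0.57 to 3.39 and *Ncam2* from -0.59 to 0.39, turning sign, while the other 5 tested genes stayed above 0. Of 127 refitted member fold changes 113 kept their sign. With each animal left out, 26 of 100 member levels moved by over 1.5 times, most of all *Ntm* in *Fezf2+ve* libraries, whose log2 level of 9.62 fell to 8.12 without animal 1. With other scaling, pseudocounts or depth, 10 of 80 did, and only *Chl1* in *Fezf2−ve* libraries, at 2.68 after downsampling, moved by 1 SD or more. Low depth limits *L1cam*, *Chl1*, *Nrcam* and *Ncam2* most, and reads cannot be assigned to exon, intron or strand from these counts.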
